A study of Drosophila melanogaster with 9 samples.

Results

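The glycosyltransferase and glutathione transferase genes described here were the 70 genes, of 17490 in the counts, whose FlyBase symbol begins with Ugt and a digit or with Gst and the class letter D, E, O, S, T or Z. Of them 35 were UDP-glycosyltransferase (UGT) genes and 35 were cytosolic glutathione S-transferase (GST) genes. They were chosen by name, not by their values. Poly(A) RNA was sequenced from whole heads, 200 to a sample, of Drosophila melanogaster flies. Their genotype was given as wild type Canton-S w1118 (iso1CJ), and heads were taken at ZT0.5 to ZT2, shortly after lights on. Flies of 1 set had lived in a group for 7 days, those of another alone for 7 days, and those of the last alone for 1 day, with 3 libraries each. The labels give neither sex nor age, nor the housing before the single day alone, and do not say that samples came from separate cultures, so p-values measure only the spread between these samples.

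UGTs are membrane enzymes of the endoplasmic reticulum that transfer a sugar, in insects mostly glucose from UDP-glucose, onto small fat-soluble molecules. Cytosolic GSTs join the tripeptide glutathione to reactive molecules such as insecticides and products of lipid peroxidation. Both make such molecules more soluble before they are exported. In insects the delta and epsilon GST classes have expanded, while the sigma, omega, theta and zeta classes are shared with other animals. In fly heads, members of both families are known from the antenna, where they can act on odorants, and from the fat body.

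Library totals ranged from 39698143 to 53514747 counts, so that a count of 0 allowed a level of up to 0.0561 to 0.0756 CPM (a gene's counts scaled to its library's total), for counting error alone. All 13 photoreceptor markers were above 0 in every library. Transcripts of gut and male tract, which do not belong to a head, summed to 641 to 1461 CPM in 5 libraries, while the remaining 4 had 1.09 to 3.60 CPM. The 5 were replicate 2 of the group, replicates 1 and 2 of 1 day alone, and replicates 1 and 3 of 7 days alone. Results are therefore given from a fit on housing alone and, where it changed a call, from a fit with an added term for body tissue. In bulk heads, fewer cells of a type and less RNA per cell cannot be told apart.

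The GST family was the more highly expressed. Levels are compared between genes as CPM per kilobase of exon. The median member stood at 18.2 CPM per kilobase among the GSTs and at 2.33 among the UGTs, over all 9 libraries. Of the 35 GSTs, 5 lay above 100 CPM per kilobase, 19 between 10 and 100, 4 between 1 and 10 and 7 below 1. Of the 35 UGTs, 1 lay above 100, 12 between 10 and 100, 7 between 1 and 10 and 15 below 1.

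GstD1, the delta enzyme known for removing chlorine from DDT, was the highest GST at 470 CPM per kilobase. It was followed by the epsilon enzymes GstE12 at 412 and GstE9 at 312. Together these made up 53.3% to 56.8% of the summed CPM of the family in a library. Ugt35B1, known from the antenna under the older name Ugt35b, led the UGTs at 157 CPM per kilobase. The next were Ugt49B1 at 52.0 and Ugt302C1 at 47.8. Ugt35B1 alone held 26.8% to 31.5% of the summed UGT CPM. Paralogs in both families share sequence, and how reads matching several of them were counted is not given in the sources used here.

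**Figure D1:**
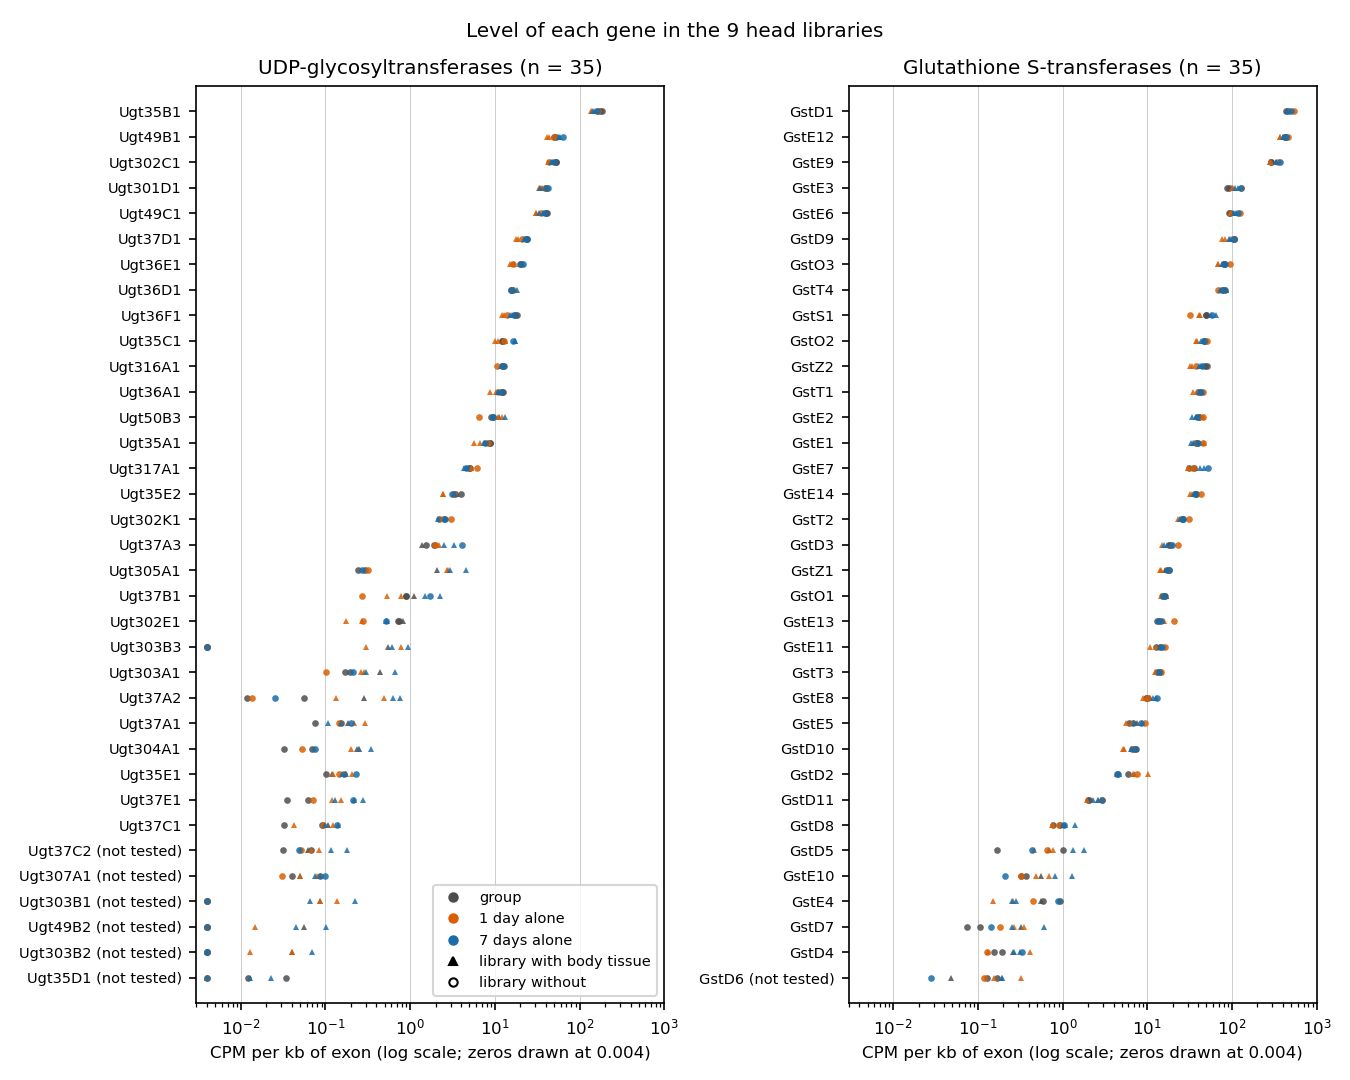
Level of each UGT and GST gene in the 9 libraries, as CPM per kilobase of exon on a log axis, with zeros drawn at 0.004. Each point is a library, coloured by housing, and triangles mark libraries with body tissue. GstD1 at 470 and Ugt35B1 at 157 head the families, and several UGTs near the bottom separate by triangles and circles rather than by colour.

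Low counts left 7 members out of the tests: GstD6, whose highest count in a library was 10, and Ugt303B1, Ugt303B2, Ugt307A1, Ugt35D1, Ugt37C2 and Ugt49B2, with at most 18. The other 63 members, 29 UGTs and 34 GSTs, were tested among 12963 genes.

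Some low UGTs followed body tissue. A difference of at least 0.5 on the log2 scale between libraries with and without it was seen in 6 of 29 UGTs, all higher with it, against 2891 of 12963 genes higher and 86 lower. The UGT count was thus close to the share over all genes. Ugt305A1 stood at 4.05 to 9.05 CPM in the 5 libraries with body tissue and at 0.483 to 0.627 CPM in the 4 without. Ugt303B3 had 21 to 77 counts in each of the 5 and 0 counts in each of the 4. Ugt37A2 was at 0.225 to 1.29 CPM with and at 0.0201 to 0.0942 CPM without. For each of these genes the ranges did not meet. The other such UGTs were Ugt304A1, Ugt303A1 and Ugt37E1. Among 34 GSTs, GstD5, GstD7 and GstE10 were higher by that margin with body tissue and GstE4 was lower, at 0.125 to 0.469 CPM with and 0.371 to 0.784 CPM without. No call between housing groups fell on any of these 10 members in either fit.

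Against group-housed flies, 3 of 29 UGTs and 1 of 34 GSTs were lower after 1 day alone and none was higher, at an adjusted p under 0.05 (edgeR quasi-likelihood test, adjusted over all genes). Of all tested genes 2.71% were lower by this test and 1.25% were higher, so the GST count was close to the share over all genes. The median log2 change was -0.12 over the UGTs, -0.06 over the GSTs and 0.03 over all genes.

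Ugt36F1 (FBgn0027074, chromosome 2L, 18819344 to 18822573), of the UGT36 subfamily, was at 29.4, 30.1 and 31.0 CPM in the group libraries. After 1 day alone it was at 21.3, 20.2 and 23.5 CPM, and after 7 days alone at 27.1, 28.3 and 25.4 CPM. Every 1-day library lay below every library of the other groups, and every 7-day library lay below every group library. Ugt36F1 fell by 0.48 on the log2 scale at 1 day (SE 0.0679, adjusted p 0.0114), from 30.2 ± 0.783 to 21.6 ± 1.68 CPM (SD, n = 3; edgeR).

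Ugt302E1 (FBgn0040257, chromosome 3R, 11154626 to 11156513), a low member of the UGT302 subfamily, showed the largest change among the members called on housing alone. It was at 1.15, 1.33 and 1.17 CPM in the group, at 0.275, 0.433 and 0.441 CPM after 1 day alone and at 0.857, 0.822 and 0.819 CPM after 7 days alone. The 3 groups did not overlap, with 1 day lowest and the group highest. Ugt302E1 fell by 1.66 at 1 day (log2, SE 0.254, edgeR adjusted p 0.0154). Its relative Ugt302C1 (FBgn0040259, chromosome 3R, 11157098 to 11159744) was far more abundant and changed less. It was at 106, 97.7 and 105 CPM in the group and at 84.8, 90.0 and 86.0 CPM after 1 day alone, which did not overlap, and fell by 0.25 (SE 0.0475, edgeR adjusted p 0.0348).

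GstZ2 (FBgn0037697, chromosome 3R, 9456815 to 9460652) belongs to the zeta class, whose enzymes isomerise maleylacetoacetate in tyrosine breakdown. It was at 118, 109 and 111 CPM in the group, at 78.0, 74.4 and 86.7 CPM after 1 day alone and at 94.9, 103 and 101 CPM after 7 days alone. Every 1-day library was below all others, and the 7-day libraries lay in between without meeting the group. GstZ2 fell by 0.49 at 1 day (log2, SE 0.0633, edgeR adjusted p 0.00781), the lowest adjusted p of any member in any comparison on housing alone. Its neighbour GstZ1, of the same class, was at 15.6 ± 0.875 CPM in the group and 14.1 ± 1.80 CPM after 1 day alone (SD, n = 3), which overlapped, and was not called.

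**Figure D2:**
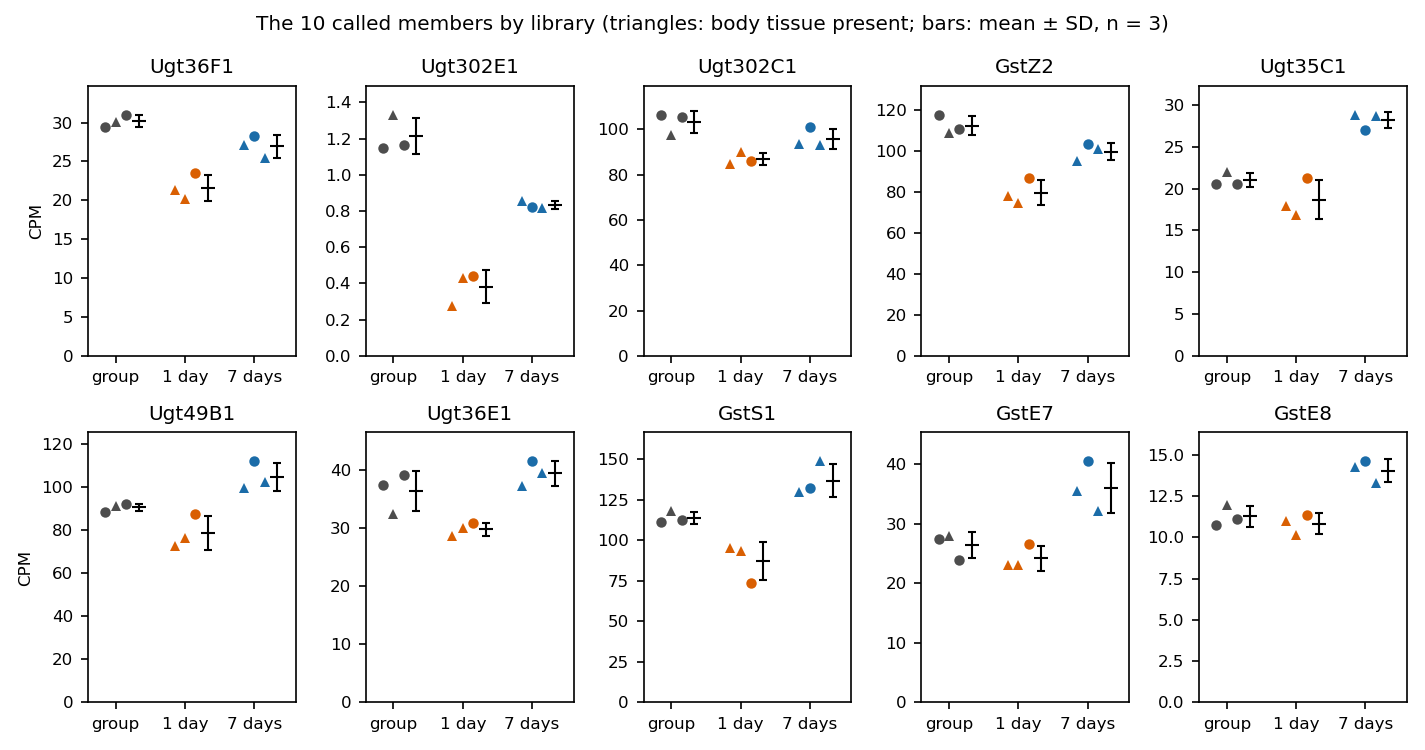
CPM of the 10 members called in at least 1 comparison, 1 panel each, with a point for each library and a bar for the mean ± SD of 3 libraries. Triangles mark libraries with body tissue. In Ugt36F1, Ugt302E1 and GstZ2 the 1-day libraries are lowest, while in Ugt35C1, GstS1, GstE7 and GstE8 the 7-day libraries lie above all others.

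With the called genes included, the libraries of 1 day alone lay wholly below those of the group in 11 of 29 UGTs and wholly above in 2. Over all genes the shares were 15.1% and 9.60%. Among 34 GSTs 5 lay wholly below, close to the share over all genes, and 2 wholly above. With the body tissue term, 5 UGTs and 2 GSTs were lower at 1 day and none was higher, against 3.27% and 2.35% of all genes. The calls gained were Ugt37D1, Ugt49C1 and GstS1, and the 4 earlier ones were kept.

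Ugt37D1 was at 47.2, 45.6 and 45.9 CPM in the group and at 36.3, 35.03 and 41.1 CPM after 1 day alone, a log2 change of -0.27 with the term (edgeR adjusted p 0.0313) and -0.30 without it (0.0507). Ugt49C1 was at 77.5, 71.3 and 76.8 CPM in the group and at 58.0, 58.6 and 66.0 CPM after 1 day alone, a log2 change of -0.26 with the term (edgeR adjusted p 0.0299) and -0.30 without it (0.0722). For both genes the 1-day libraries lay below the group libraries. GstS1, described with the isolation times, changed by -0.45 with the term (edgeR adjusted p 0.0165) and by -0.38 without it (0.0900).

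Ugt36E1 and Ugt35B1 were not called at 1 day. Ugt36E1 changed by -0.28 (edgeR adjusted p 0.0982 on housing alone). Ugt35B1, the highest UGT, was at 292, 270 and 304 CPM in the group and at 237, 228 and 275 CPM after 1 day alone, which overlapped. The summed CPM of the 35 UGTs was 961, 922 and 971 in the group, 808, 801 and 872 after 1 day alone and 891, 964 and 937 after 7 days alone. The 1-day sums were the lowest, and those of the group and of 7 days overlapped. The summed GST CPM was 2218 ± 6.06 in the group, 2169 ± 229 after 1 day and 2301 ± 104 after 7 days (SD, n = 3). The wide spread at 1 day came from replicate 3, at 2434 CPM against 2050 and 2024 CPM in the others. Replicate 3 was the library of 1 day without body tissue. After 7 days the library without it was at 2420 CPM, and those with it at 2231 and 2253 CPM. In the group those without it were at 2211 and 2223 CPM, and that with it at 2220 CPM. The part of body tissue in these sums was not tested.

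Other values moved with the 1-day libraries. The summed photoreceptor markers were at 62763 to 73545 CPM after 1 day alone, at 81012 to 81396 CPM in the group and at 72971 to 79652 CPM after 7 days alone. Of 13 such markers 2 fell at 1 day. The summed muscle markers were at 4086 to 4400 CPM after 1 day alone, at 3214 to 3248 CPM in the group and at 3061 to 3322 CPM after 7 days alone, and 7 of 9 rose at 1 day. After 1 day alone, mitochondrial transcripts took 7.30%, 7.37% and 3.41% of counts in replicates 1, 2 and 3, beside 2.48% to 5.24% for the libraries of the other groups. Log2 changes at 1 day declined with exon length over all genes (Spearman rho -0.41 across 12963 genes, which share libraries), and the median length was 884 bases in the GSTs, 1764 in the UGTs and 1782 over all genes. The summed antenna markers, of which 12 of 16 were above 0 in every library, were at 828, 853 and 1199 CPM in replicates 1, 2 and 3 of 1 day alone, at 1053 to 1171 CPM in the group and at 955 to 1128 CPM after 7 days alone. Of 9 tested antenna markers 2 fell at 1 day, with a list median of -0.22 on the log2 scale. The part of these values in the results was not tested.

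The calls at 1 day were near the threshold. With each of the 9 libraries left out in turn, GstZ2 passed in 7 fits and missed without replicate 1 of the group or replicate 3 of 7 days (adjusted p up to 0.0672). Ugt36F1 passed only without replicate 2 or 3 of 1 day (up to 0.116 elsewhere), Ugt302E1 only without replicate 3 of 1 day or replicate 2 of 7 days (up to 0.0931), and Ugt302C1 in none (up to 0.219), while each kept its direction. With the body tissue term the passes of 9 were 9 for GstZ2, 8 for Ugt302E1, 6 for Ugt36F1 and 0 for Ugt302C1. Of the calls gained with it, GstS1 passed in 7 (adjusted p up to 0.0602), and Ugt37D1 and Ugt49C1 in 1 each (up to 0.274 and 0.276). The 10 called members differed little with body tissue itself, by -0.14 to 0.17 on the log2 scale.

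**Figure D3:**
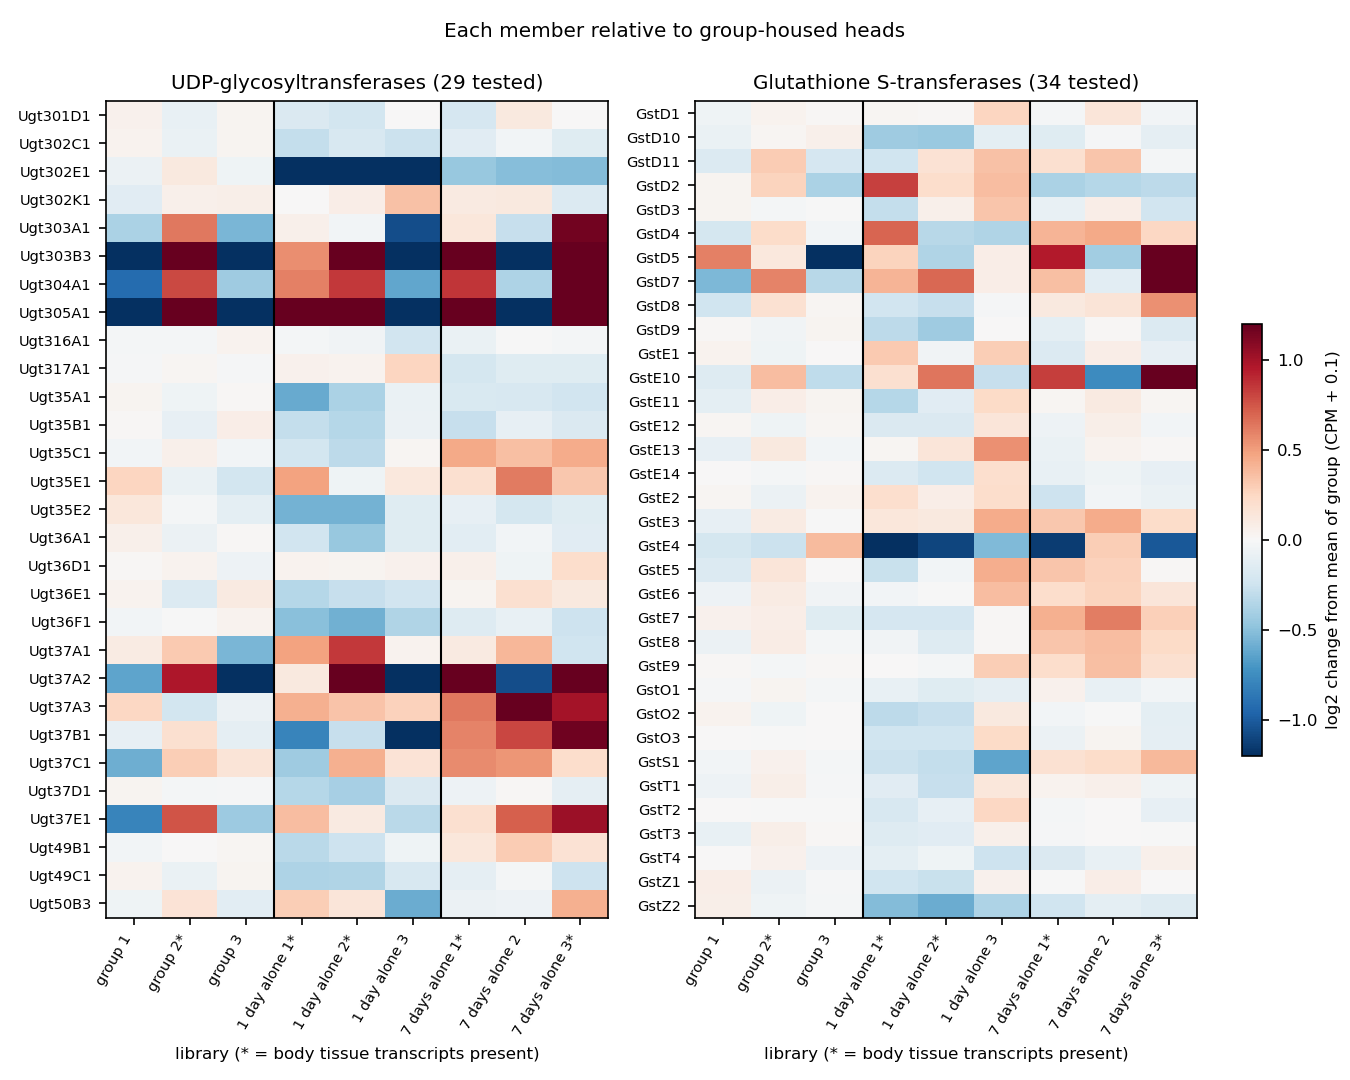
Log2 change of each of the 63 tested members from the mean of the group libraries, computed on CPM + 0.1 and coloured from -1.2 to 1.2, for every library. Asterisks mark libraries with body tissue. Ugt302E1 and GstZ2 are blue in all 3 libraries of 1 day alone, GstE7 and GstE8 are red in all 3 of 7 days alone, and Ugt305A1 follows the asterisks.

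Between the isolation times, every member called on housing alone was higher after 7 days than after 1 day. The test called 4 UGTs and 4 GSTs higher and none lower, against 3.11% of all genes higher and 1.51% lower. The log2 change was above 0 in 26 of 29 UGTs, in 26 of 34 GSTs and in 57.8% of all genes, with medians of 0.27 and 0.10 and a median of 0.04 over all genes. This comparison shares the 1-day libraries with the one against the group, so the values stand side by side and do not support each other.

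Ugt35C1 (FBgn0040256, chromosome 3R, 11126597 to 11128328), known as Ugt86Dd from work on nicotine resistance of larvae, was at 18.0, 16.8 and 21.3 CPM after 1 day alone. It was at 28.8, 27.1 and 28.6 CPM after 7 days alone and at 20.5, 22.0 and 20.5 CPM in the group. The 7-day libraries lay above all others, and the 1-day libraries overlapped the group. Ugt35C1 rose by 0.59 from 1 to 7 days (log2, SE 0.0881, edgeR adjusted p 0.0142).

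Ugt36E1 (FBgn0027070, chromosome 2L, 18826770 to 18829059), studied in olfactory neurons, was at 28.6, 30.0 and 30.8 CPM after 1 day alone, at 37.2, 41.4 and 39.4 CPM after 7 days alone and at 37.3, 32.4 and 39.1 CPM in the group. The 1-day libraries were the lowest, and the others overlapped. It rose by 0.40 from 1 to 7 days (SE 0.0776, edgeR adjusted p 0.0334). Ugt49B1 (FBgn0027073, chromosome 2R, 21212880 to 21214972), the second most abundant UGT, was at 72.4, 76.1 and 87.3 CPM after 1 day alone, at 99.7, 112 and 102 CPM after 7 days and at 88.6, 90.9 and 91.9 CPM in the group. The 3 groups did not overlap, in the order 1 day, group and 7 days. Ugt49B1 rose by 0.41 between the times (SE 0.0739, edgeR adjusted p 0.0265). The last of the 4 was Ugt36F1, at 0.32 (SE 0.0678, edgeR adjusted p 0.0465). Exons of Ugt36E1 overlap CG17597 on the other strand by 48 bases, and those of Ugt49B1 overlap CG44245 by 90.

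GstS1 (FBgn0010226, chromosome 2R, 17093246 to 17099501), the sole sigma enzyme, is abundant in flight muscle and acts on the lipid peroxidation product 4-hydroxynonenal. It was at 95.02, 93.1 and 73.4 CPM after 1 day alone, at 129, 132 and 149 CPM after 7 days alone and at 111, 118 and 112 CPM in the group. The 3 groups were fully apart, with 1 day lowest and 7 days highest. GstS1 rose by 0.65 from 1 to 7 days (log2, SE 0.102, edgeR adjusted p 0.0167). It was lowest at 1 day, where the summed muscle markers were highest. The muscle marker sums of the group and of 7 days overlapped, and their part in the GstS1 values was not tested.

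The epsilon enzymes GstE7 and GstE8 are adjacent on chromosome 2R. GstE7 (FBgn0063493, 18406924 to 18407688) was at 23.0, 23.0 and 26.6 CPM after 1 day alone, at 35.5, 40.4 and 32.1 CPM after 7 days and at 27.4, 27.9 and 23.9 CPM in the group. GstE8 (FBgn0063492, 18407834 to 18408955) was at 10.96, 10.1 and 11.4 CPM after 1 day, at 14.2, 14.6 and 13.3 CPM after 7 days and at 10.7, 11.98 and 11.1 CPM in the group. For both genes the 7-day libraries lay above all others, and 1 day overlapped the group. GstE7 rose by 0.57 between the times (SE 0.107, edgeR adjusted p 0.0304) and GstE8 by 0.37 (SE 0.0742, edgeR adjusted p 0.0369). GstZ2 rose by 0.32 (SE 0.0632, edgeR adjusted p 0.0353).

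The 7-day libraries lay wholly above the 1-day libraries in 10 of 29 UGTs and 6 of 34 GSTs, against 12.9% of all genes, and wholly below in 1 UGT and 2 GSTs, against 8.70%. With the body tissue term, 7 UGTs and 4 GSTs were higher and 2 GSTs lower, against 4.49% and 2.41% of all genes. The UGTs gained were Ugt37B1, Ugt302E1 and Ugt37D1. Ugt37B1 was at 0.926, 1.37 and 0.464 CPM after 1 day alone, at 2.59, 3.01 and 3.90 CPM after 7 days and at 1.56, 1.93 and 1.55 CPM in the group, with no overlap between the 3. Its log2 change was 1.83 with the term (edgeR adjusted p 0.00749) and 1.78 without it (0.0509). Ugt302E1 changed by 1.11 with the term (edgeR adjusted p 0.0317) and Ugt37D1 by 0.26 (edgeR adjusted p 0.0282).

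The 2 GSTs lower after 7 days with the term were of the delta and epsilon classes. The delta enzyme GstD2 was at 7.58, 4.96 and 5.52 CPM after 1 day alone, at 3.26, 3.33 and 3.41 CPM after 7 days and at 4.37, 5.16 and 3.26 CPM in the group, a log2 change between the times of -0.85 (edgeR adjusted p 0.0341 with the term, 0.0811 without). The epsilon enzyme GstE2 was at 40.4, 37.3 and 40.7 CPM after 1 day, at 29.7, 34.5 and 33.4 CPM after 7 days and at 35.9, 33.6 and 36.2 CPM in the group, a change of -0.28 (edgeR adjusted p 0.0311 with the term, 0.0704 without). In both genes the 1-day libraries lay above the 7-day libraries. Ugt317A1 was the UGT below 0 with the lowest p, at -0.29 (edgeR adjusted p 0.0933 on housing alone).

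These calls also depended on single libraries. On housing alone GstS1 passed in 5 of 9 fits and missed without replicate 1 of the group or any 1 replicate of 7 days (adjusted p up to 0.0958). Ugt35C1 passed in 2, without replicate 2 or 3 of 1 day (up to 0.135 elsewhere). GstE7, GstZ2, Ugt36E1, Ugt36F1 and Ugt49B1 passed in 1, without replicate 3 of 1 day (up to 0.156, 0.347, 0.322, 0.379 and 0.225), and GstE8 in none (up to 0.251). With the body tissue term the passes were 9 for GstS1, Ugt36E1 and Ugt37B1, 8 for Ugt35C1 and Ugt49B1, 6 for GstE7, 4 for GstZ2 and 3 for GstE8 and Ugt36F1. Of the calls gained with it, GstE2 passed in 7 (adjusted p up to 0.0682), GstD2 in 3 (up to 0.0936), and Ugt302E1 and Ugt37D1 in 2 each (up to 0.158 and 0.298). Directions were kept in every one of these fits.

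After 7 days alone against the group, no UGT and no GST was called on housing alone, where 0.247% of all genes were higher and 0.0540% lower. At an unadjusted p under 0.05 there were 5 of 29 UGTs and 6 of 34 GSTs, beside 6.36% of all genes, and the lowest adjusted p was 0.157 among the UGTs and 0.247 among the GSTs (edgeR). DESeq2 called 2 UGTs and 2 GSTs, beside 2.95% of the genes it gave an adjusted p, and limma-voom called 0 of each, beside 0.401% of all genes. The median log2 change was 0.12 over the UGTs, 0.01 over the GSTs and 0.01 over all genes.

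Ugt37A3 had the lowest p at 7 days. It was at 3.22, 2.29 and 2.55 CPM in the group, at 4.23, 6.86 and 5.45 CPM after 7 days alone and at 3.65, 3.44 and 3.27 CPM after 1 day alone, with no overlap between the groups. Its log2 change was 1.04 (edgeR adjusted p 0.157) and, with the body tissue term, 1.11 (0.0288), the 1 member called with the term, under which 0.933% of all genes were higher and 0.162% lower. In fits that left out 1 library and kept the term it passed in 3 of 9 (adjusted p up to 0.279). The values of Ugt35C1 in the group and after 7 days, given with the isolation times, differed by 0.42 (edgeR adjusted p 0.164).

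The 7-day libraries lay wholly above the group in 4 UGTs and 7 GSTs and wholly below in 5 UGTs and 2 GSTs. Over all genes the shares were 7.00% and 8.45%. Of the 7 GSTs, 5 were epsilon genes of a single cluster. GstE9, whose exons overlap imd on the other strand by 40 bases, was at 228, 222 and 228 CPM in the group and at 263, 291 and 258 CPM after 7 days alone. GstE3 was at 65.7, 75.4 and 69.9 CPM in the group and at 87.9, 95.5 and 81.7 CPM after 7 days. GstE6 was at 69.8, 77.7 and 70.5 CPM and at 84.1, 87.5 and 80.3 CPM. None passed the test, with log2 changes of 0.26 for GstE9 (edgeR adjusted p 0.560), 0.33 for GstE3 (0.491), 0.45 for GstE7 (0.259) and 0.32 for GstE8 (0.247). GstS1 and GstD4 were the other GSTs above the group, and GstZ2 and GstE14 were those below. GstD4 had only 6, 10 and 7 counts in the group and 12, 11 and 9 after 7 days, which overlapped before scaling. The summed markers of head fat body, 9 of 10 above 0 in every library, were at 7505 to 8933 CPM after 7 days alone, at 6192 to 6753 CPM in the group and at 5747 to 7597 CPM after 1 day alone. At 7 days 2 of 9 tested fat body markers were higher than in the group, and 3 with the body tissue term. Their part in the results was not tested.

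GstD1, GstE12, Ugt35B1 and Ugt50B3 did not pass in any comparison, on housing alone or with the body tissue term. GstD1 was at 385 ± 12.8 CPM in the group, 412 ± 40.2 CPM after 1 day alone and 393 ± 28.1 CPM after 7 days alone (SD, n = 3). Its log2 changes were 0.10 at 1 day (SE 0.0797) and 0.03 at 7 days (SE 0.0799) against the group. GstE12 was at 585 ± 16.3, 562 ± 74.4 and 583 ± 27.3 CPM in the same order, and Ugt35B1 at 289 ± 17.5, 246 ± 24.8 and 254 ± 15.5 CPM. Ugt50B3 was at 32.8 ± 3.44, 32.7 ± 9.74 and 35.6 ± 7.41 CPM. In each of these genes some libraries of the compared groups overlapped, except that Ugt35B1 after 7 days lay below the group. That margin was narrow, with the highest 7-day library at 269.5 CPM and the lowest group library at 269.6 CPM.

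GstE14 and the omega and theta classes gave no call. GstE14, the enzyme Noppera-bo of ecdysteroid synthesis in larvae, was at 38.0 ± 0.511 CPM in the group, 36.6 ± 6.21 CPM after 1 day and 36.0 ± 0.666 CPM after 7 days (SD, n = 3). The omega enzyme GstO2, whose exons overlap the omega gene se on the other strand by 61 bases, was at 83.8, 78.5 and 81.8 CPM in the group and at 65.4, 67.2 and 88.1 CPM after 1 day alone. Replicate 3 of 1 day stood above every group library and replicates 1 and 2 below, as they also did for GstE12 and GstE14. The theta enzyme GstT4 was at 99.9 ± 3.86, 90.9 ± 6.15 and 95.6 ± 7.71 CPM in the group, after 1 day and after 7 days. None of the 3 omega and 4 theta genes passed in any comparison, on housing alone or with the body tissue term.

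Most of the GSTs and many UGTs lie in tandem arrays. In coordinates of the counts, which for 69 of the 70 members equal those of the BDGP6 annotation, 10 epsilon genes lie on chromosome 2R from 18396638 to 18409835 and 11 delta genes on 3R from 12364776 to 12385624. A further 10 UGTs lie on 3R from 11126597 to 11177910. Along the epsilon array, the log2 changes at 7 days against the group were 0.88 for GstE10 (SE 0.639), which followed body tissue, -0.06 for GstE1, -0.12 for GstE2, 0.33 for GstE3, -0.56 for GstE4, 0.22 for GstE5, 0.21 for GstE6, 0.45 for GstE7, 0.32 for GstE8 and 0.26 for GstE9. None of them passed the test.

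In the delta array none of the 10 tested genes was called on housing alone. In the UGT array Ugt302E1 fell by 1.66 at 1 day, while Ugt302K1 beside it changed by 0.15 (edgeR adjusted p 0.666). Ugt302C1, on its other side, was also called lower at 1 day, at -0.25. On chromosome 2L, Ugt36D1 lies between Ugt36F1 and Ugt36E1. It was at 36.7, 37.6 and 34.9 CPM in the group and at 37.6, 37.3 and 37.8 CPM after 1 day alone, a change of 0.04, beside -0.48 for Ugt36F1 and -0.28 for Ugt36E1. The difference between neighbours was not tested.

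**Figure D4:**
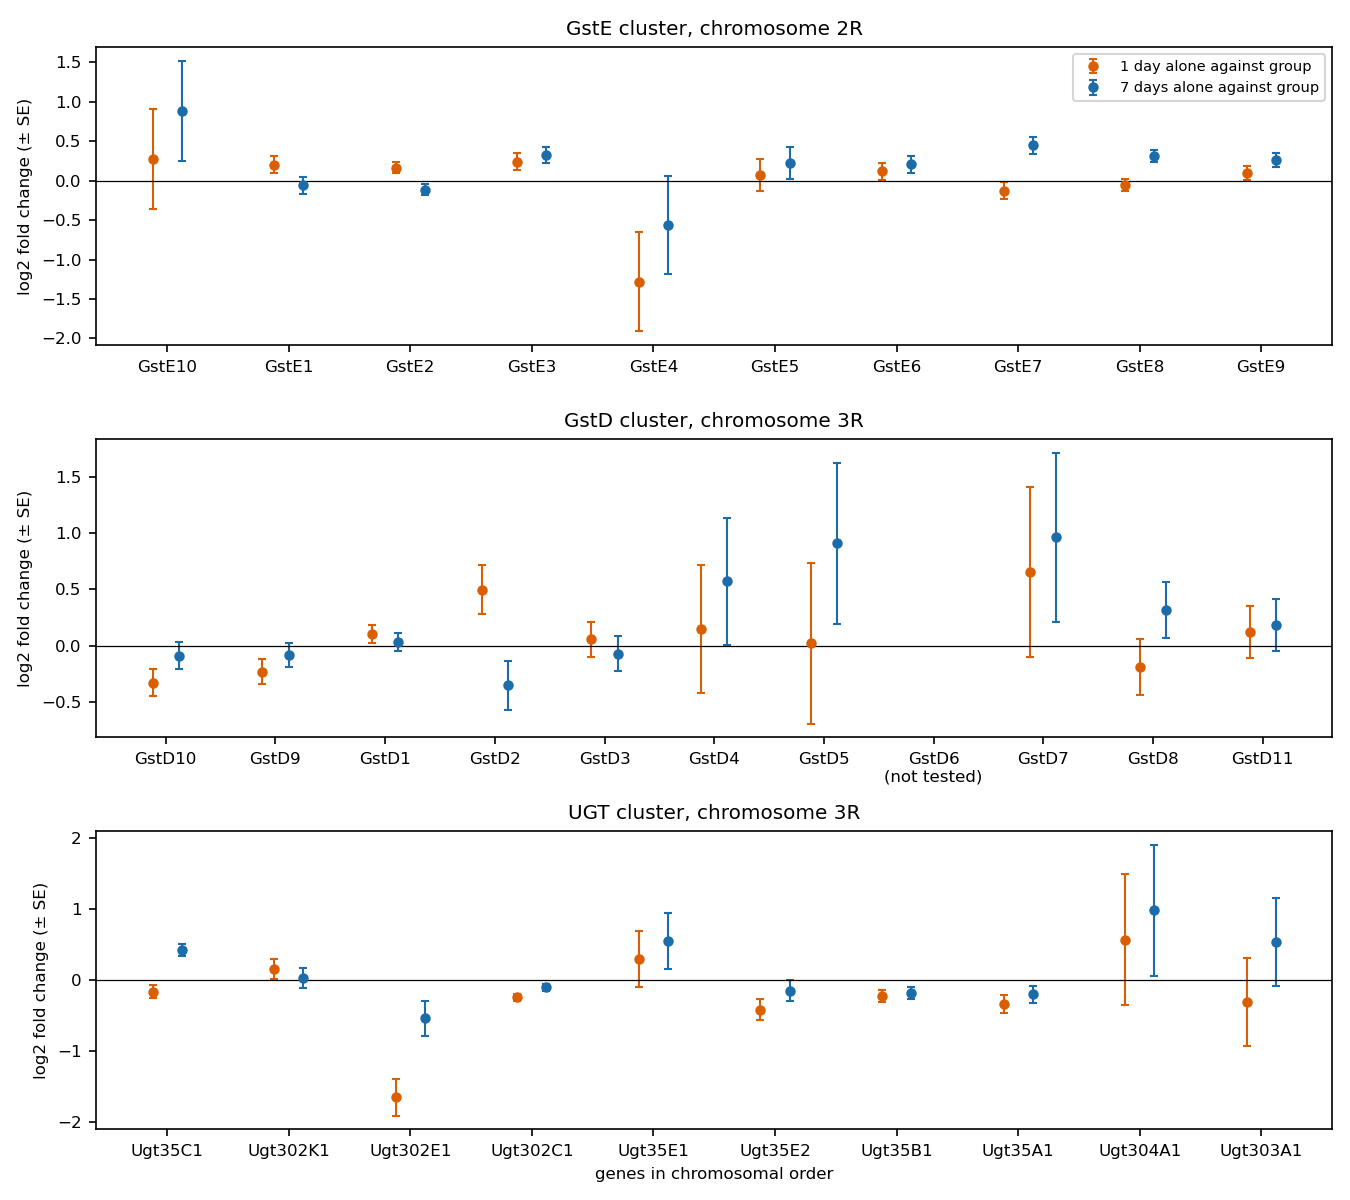
Log2 fold change against the group after 1 day (orange) and 7 days (blue) alone, with bars of 1 SE, for the genes of the epsilon GST, delta GST and UGT arrays in chromosomal order. In the epsilon array GstE6 to GstE9 lie at 0.21 to 0.45 after 7 days, and in the UGT array Ugt302E1 stands out at -1.66 after 1 day.

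Genes that supply or accompany the families were described from lists. UGP, which makes UDP-glucose, the sugar donor of UGTs, was at 536, 509 and 514 CPM in the group, at 409, 389 and 395 CPM after 1 day alone and at 532, 589 and 570 CPM after 7 days alone. The 1-day libraries were below all others. UGP fell by 0.39 at 1 day (edgeR adjusted p 0.00688) and rose by 0.50 from 1 to 7 days (edgeR adjusted p 0.00358), the sole call among 3 tested genes of sugar donor supply in each of these comparisons. With each library left out, UGP passed at 1 day in 8 of 9 fits and missed without replicate 3 of 7 days (adjusted p 0.0737). Between the times it passed in 7 and missed without replicate 2 or 3 of 7 days (up to 0.0816).

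Of 11 tested genes of glutathione synthesis and recycling, none was called against the group at 1 or 7 days, and 4 rose from 1 to 7 days, where 3.11% of all genes were higher. These 4 were Zw (0.24), Pgd (0.36), Idh (0.32) and Men (0.38), with edgeR adjusted p of 0.0355, 0.0148, 0.0352 and 0.0443. All encode enzymes that make NADPH, which thioredoxin reductase uses to keep fly glutathione reduced. With each library left out, Pgd passed in 4 of 9 fits and missed without any 1 library of the group or replicate 2 or 3 of 7 days (adjusted p up to 0.202). Idh passed only without replicate 3 of 1 day (up to 0.384) and Zw in none (up to 0.251). Men was not followed with libraries left out. Zw and Idh were also lost with upper quartile scaling and with no filter on low counts. The list median was 0.16 between the times, beside 0.04 over all genes. Gclc and Gclm, the subunits of the rate-limiting enzyme of glutathione synthesis, were not called, and neither were any of 7 other genes with a glutathione transferase fold or function.

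Among 7 regulators, crc, the fly ATF4, fell by 0.38 at 1 day (edgeR adjusted p 0.00532) and rose by 0.24 from 1 to 7 days (edgeR adjusted p 0.0279). With each library left out it passed at 1 day in 8 of 9 fits, all but that without replicate 3 of 7 days (0.0538), and between the times only without replicate 3 of 1 day (up to 0.280). The fly Nrf2 gene cnc, which activates GstD1 in oxidative stress, was at 303, 295 and 318 CPM in the group, 280, 275 and 197 CPM after 1 day and 277, 322 and 334 CPM after 7 days. It was not called, nor was its inhibitor Keap1.

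Of 15 tested response enzymes outside the families 3 were higher at 7 days and 3 at 1 day against the group, where 0.247% and 1.25% of all genes were higher. Both times they were the cytochrome P450 genes Cyp6a8 (1.61 and 0.83), Cyp6w1 (0.99 and 0.89) and Cyp6a2 (0.61 and 0.57), with values for 7 days first. At 1 day 1 was lower, Cyp6g1, known from DDT resistance, at -0.39 (edgeR adjusted p 0.0134). With the body tissue term 5 were higher at each time, beside 0.933% of all genes at 7 days and 2.35% at 1 day. The genes gained were Cyp4e2 (0.29, edgeR adjusted p 0.0288) and Jheh1 (0.42, edgeR adjusted p 0.00444) at 7 days, and Cyp304a1 (2.49, edgeR adjusted p 0.0254) and Jheh1 (0.29, edgeR adjusted p 0.0104) at 1 day. Between the times Cyp6a8, Cyp6g1 and Cyp4e2 were higher, by 0.78, 0.57 and 0.38, and Cyp304a1 was lower, at -3.61, and the term added Jheh2 at 0.18 (edgeR adjusted p 0.0479).

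The P450 calls varied in how far they rested on single libraries, though Cyp304a1 was not followed with libraries left out. Against the group, Cyp6a8 passed in 8 of 9 fits at both times and missed without replicate 2 of the group (adjusted p up to 0.0549). Cyp6w1 passed in 9 fits at 1 day and in 6 at 7 days, where it missed without replicate 2 of the group or replicate 2 or 3 of 7 days (up to 0.153). Cyp6a2 passed in 5 at 1 day, missing without any 1 library of the group or replicate 2 of 7 days (up to 0.0915), and at 7 days only without replicate 3 of 1 day (up to 0.332). Cyp6g1 passed at 1 day in 3, without replicate 2 or 3 of 1 day or replicate 1 of 7 days (up to 0.118 elsewhere). Between the times Cyp6a8 passed in 8 and Cyp6g1 in 7 (up to 0.0528 and 0.0895). Cyp4e2 passed there only without replicate 3 of 1 day (up to 0.198). Its call gained at 7 days with the body tissue term passed in 1 of 9 fits that kept the term (up to 0.303).

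Of 19 transporters of conjugates and organic anions none was called at 7 days against the group on housing alone. With the body tissue term Mdr50, an ABC transporter gene, was called there at 1.89 (edgeR adjusted p 0.00303), beside 2.01 without it (0.0527), and passed in 8 of 9 fits that left out a library and kept the term. At 1 day Oatp74D, the ecdysone importer gene, was lower at -0.31 (edgeR adjusted p 0.0413) and passed in 1 of 9 such fits on housing alone (up to 0.177). Between the times 3 were higher, Mdr50 (1.87), CG31793 (0.36), also of the ABC family, and Oatp74D (0.38), and the term added Oatp30B at 0.37 (edgeR adjusted p 0.0267). Of all genes, 3.11% were higher between the times and 2.71% lower at 1 day on housing alone. With the term, 4.49% were higher between the times and 0.933% at 7 days against the group. On housing alone Mdr50 and Oatp74D passed in 5 of 9 fits (up to 0.101 and 0.204) and CG31793 in 1 (up to 0.206). Mdr50 missed without replicate 1 of 1 day or any 1 replicate of 7 days, and Oatp74D without replicate 2 of any group or replicate 3 of 7 days. CG31793 passed only without replicate 2 of 1 day. Mdr50 was at 3.905, 6.25 and 3.25 CPM after 1 day alone and at 14.8, 15.3 and 18.9 CPM after 7 days alone, with no overlap, and at 3.22, 5.27 and 3.68 CPM in the group.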

How the data were processed

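The authors deposited counts, whole numbers of reads per gene for each of 9 head libraries, with exon positions and summed exon length. The submitters' processing notes name bcl2fastq 2.20, the aligner STAR 2.4.2a and the counter featureCounts. The library kit keeps strand, per the labels' protocols. Not given in the sources used here are the genome build, the annotation release, and how strand and reads matching several genes were handled. Exons of 11 members overlapped an exon of another gene on the other strand, by the exon positions deposited with the counts. The BDGP6 annotation, from Ensembl, was used to compare the spans of genes.

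Testing used edgeR 4.0.16 under R 4.3.3 (filterByExpr on the groups, TMM, quasi-likelihood test, 9 libraries in 1 fit) and covered 12963 genes. Calls were made at a two-sided Benjamini-Hochberg adjusted p under 0.05 over all of them. The SE was taken as the size of the log2 change over the root of the F statistic. CPM were scaled with the TMM factors, except the sums that define body tissue (gut and male tract markers over 50 CPM), which used plain totals.

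The members, lists, tests and alternatives were chosen with earlier results of these data known, and the body tissue term and length trend had been introduced after those libraries were seen. Named members were those called in any comparison, the 3 next by p per family and comparison, the 3 highest per kilobase in each family, those called at least 2 times with the body tissue term, and GstD1, GstS1, GstO2, GstE14, GstZ1, GstT4, Ugt35B1, Ugt36E1, Ugt35C1 and Ugt50B3. Members beyond this rule were named where a small count or a neighbouring gene was described, after their values were seen. Correlations of deviations from group means ran from -0.23 to 0.04 between equal replicate numbers and from -0.19 to 0.24 between unequal ones, over 9986 genes. Deviations within a group of 3 are not independent, and body tissue differs between some equal numbers. This check therefore cannot exclude that the numbers pair libraries. No 2 libraries of the same group agreed within counting noise (chi-square per gene from 7.80 to 161). Intervals and floors cover counting error only. Alternatives were RLE and upper quartile scaling, other filters, DESeq2 1.42.0, limma-voom (limma 3.58.1), a replicate block, subsets of libraries, and subtraction of a length trend. The tests were also run on simulated counts, whose outcome is not given here. Figures were drawn with matplotlib 3.10.9.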

Additional observations from a re-analysis of the deposited data

How the results depend on the processing

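Numbers of called members depended on the settings. Of 3960 values of single named genes under the alternatives, 3424 kept their side of the threshold, 363 lost and 172 gained a call, and 1 turned. Most of the 3960 belong to comparisons not called on housing alone and could not lose a call. The share that kept its side therefore does not measure how stable the calls were. Among the 3424, the sign changed in 188 that were called in neither fit. The 1 that turned was GstE14 at 1 day against the group, not called at -0.06 with all libraries and at 0.18 (edgeR adjusted p 0.0107) in the libraries without body tissue. In every setting the cause was not tested.

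On housing alone the UGT calls were 0 at 7 days against the group, 3 at 1 day against the group and 4 between the times, and the GST calls 0, 1 and 4, beside 39, 513 and 599 of 12963 genes. In the same order, DESeq2 gave 2, 7 and 9 UGTs and 2, 2 and 6 GSTs, beside 330, 1561 and 1505 genes. A fit of only the libraries of the groups compared gave 1, 0 and 0 UGTs and 0, 0 and 0 GSTs, beside 64, 133 and 32 genes. The body tissue term gave 1, 5 and 7 UGTs and 0, 2 and 6 GSTs, beside 142, 728 and 895 genes. The length trend subtraction gave 1, 5 and 8 UGTs and 0, 1 and 4 GSTs, beside 86, 830 and 927 genes. It removed the trend only in part. Spearman rho of log2 change with exon length was -0.27, -0.41 and 0.13 before it and -0.15, -0.19 and -0.04 after it. The 5 libraries with body tissue gave 0, 0 and 2 UGTs and 0, 1 and 3 GSTs, beside 4, 127 and 335 genes. The 4 libraries without it, where a lone library is assumed to vary like the group pair, gave 4, 12 and 11 UGTs and 6, 19 and 12 GSTs, beside 766, 5468 and 4586 of 12963 genes. There 10 of the 12 UGTs were lower at 1 day and 10 of the 11 higher between the times, while 16 of the 19 GSTs were higher at 1 day and 8 of the 12 lower between the times. On housing alone the GST calls had been 1 lower at 1 day and 4 higher between the times. Between the times, upper quartile scaling gave 2 UGTs and 2 GSTs, beside 520 genes, and no filter on low counts gave 1 and 1, beside 348 of 16099 genes.

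A replicate block, for numbers that are not known to pair the samples, gave 0 UGTs in each comparison and 0, 1 and 0 GSTs, beside 0, 162 and 126 genes.

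Leaving out 1 library in turn gave 0 to 1, 0 to 7 and 0 to 7 UGTs and 0 to 1, 0 to 5 and 0 to 7 GSTs in the same order, and with the body tissue term 0 to 2, 1 to 5 and 2 to 7 UGTs and 0 to 2, 1 to 3 and 2 to 7 GSTs. Over all genes these fits gave 3 to 193, 137 to 881 and 72 to 1167 calls. With the term they gave 34 to 241, 241 to 784 and 395 to 1218. The highest numbers without the term came from leaving out replicate 3 of 1 day alone, which gave 1, 7 and 7 UGTs and 1, 5 and 7 GSTs. That fit called 193, 881 and 1167 of 13187 genes. UGT calls at 1 day went to 0 without any 1 library of the group, replicate 1 of 1 day, or replicate 1 or 3 of 7 days. Between the times they went to 0 without any 1 library of the group or of 7 days, or replicate 1 of 1 day. Over all genes, fits without a UGT call gave 137 to 324 calls at 1 day and 72 to 341 between the times. With all 9 libraries these numbers were 513 and 599. GST calls at 1 day went to 0 without replicate 1 of the group or replicate 3 of 7 days, and between the times without replicate 2 or 3 of 7 days. Without replicate 1 of the group or replicate 1 of 7 days, the sole GST called between the times was GstE2, which was lower after 7 days. Members under about 1 CPM were limited by depth, and a difference there was not detectable where their libraries spread widely.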
